A study of Mus musculus with 6 samples.

Results

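The interferon-linked PARP enzymes Parp9, Parp10, Parp11, Parp12 and Parp14 and the ubiquitin ligase Dtx3l were examined in mouse liver, together with Parp1 and Parp2, which belong to the same enzyme family and are not tied to interferon. These 8 genes were found on the array through the RefSeq accession that names each probe, and they were 8 of 37074 genes on it. Array names without a matched gene symbol were counted as genes too, here and among the tested genes. Dtx3l had 2 probes and each other gene had 1. Of the 8 genes, 7 were bright enough to be tested among 22341 tested genes, and Parp11 was not. The comparison was between male L1-Tg mice and their male WT littermates, both on the control-fat diet (CFD). L1-Tg mice were hemizygous for human NPC1L1, a cholesterol transporter, which the APOE promoter drives in hepatocytes. The line, B6;D2-Tg(APOE-NPC1L1)20Lqyu/J, had been backcrossed to C57BL/6J for 8 generations or more, and the methods give ages of 6 to 12 weeks for the study's mice. Each of the 3 arrays of a genotype held Cy3-labeled RNA pooled from 2 or 3 livers, so every p-value measures the spread between pools. The question asked of the arrays was how the livers of the 2 genotypes differ at baseline.

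PARP enzymes use NAD to attach ADP-ribose to proteins. Parp1 and Parp2 build long chains of it at DNA breaks, whereas Parp10, Parp11, Parp12 and Parp14 attach single units. Type I interferon binds its receptor, whose kinases Jak1 and Tyk2 start the signal that induces many antiviral genes, among which Parp9, Dtx3l, Parp12 and Parp14 are known. Parp9 and Dtx3l form a complex, and several of these proteins restrict viruses. In liver, hepatocytes, Kupffer cells and endothelial cells all respond to interferon.

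Promoter sequences of 3 members are shown because these genes are grouped by their link to interferon. The RefSeq promoter table (GRCm38.p6), whose windows span 300 bases and lie mostly upstream of a transcription start, held 6 windows for 5 of the 8 genes, namely Dtx3l, Parp12, Parp11 (2 starts), Parp1 and Parp2. Windows for Parp9, Parp10 and Parp14 were not used here. In the upstream window of Parp11, chr6:127446590-127446889 on the plus strand, the capitals mark 2 overlapping motifs.
Parp11: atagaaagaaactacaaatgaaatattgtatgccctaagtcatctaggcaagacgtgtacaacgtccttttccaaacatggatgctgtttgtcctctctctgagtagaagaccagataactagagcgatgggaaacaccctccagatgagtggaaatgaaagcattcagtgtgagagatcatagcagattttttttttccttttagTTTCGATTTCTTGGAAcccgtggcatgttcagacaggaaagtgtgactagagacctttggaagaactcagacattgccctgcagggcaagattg
The window of Parp12, chr6:39118300-39118599 on the minus strand, is shown because Parp12 had the largest difference of the tested members.
Parp12: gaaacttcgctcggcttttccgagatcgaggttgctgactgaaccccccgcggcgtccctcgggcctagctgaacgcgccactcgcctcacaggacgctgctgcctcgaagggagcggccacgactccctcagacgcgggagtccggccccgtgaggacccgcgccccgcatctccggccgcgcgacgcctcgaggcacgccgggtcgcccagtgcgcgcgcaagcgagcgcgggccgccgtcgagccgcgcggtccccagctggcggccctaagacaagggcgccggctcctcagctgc
The window of Dtx3l, chr16:35938978-35939277 on the minus strand, is shown because the start of Dtx3l lies inside the annotated span of Parp9.
Dtx3l: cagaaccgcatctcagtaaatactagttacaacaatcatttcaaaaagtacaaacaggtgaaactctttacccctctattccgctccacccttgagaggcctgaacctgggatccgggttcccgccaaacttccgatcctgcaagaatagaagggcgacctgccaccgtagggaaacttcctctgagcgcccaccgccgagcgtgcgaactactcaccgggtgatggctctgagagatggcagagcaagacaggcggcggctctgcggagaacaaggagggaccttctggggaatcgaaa
Both strands were searched for GAAANNGAAA, the core of the interferon-stimulated response element, and for TTCNNNGAA, the palindromic STAT site. The first was found in 1131 of all 32851 promoter windows (3.44%) and the second in 2726 (8.30%). The upstream Parp11 window held TTTCGATTTC, the first motif read on the minus strand, with its first base at -44 from the start, and TTCTTGGAA, the second motif, at -37. The other 5 windows, including those of Parp12 and Dtx3l and the second Parp11 window, held neither string of letters.

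Values are log2 of the background-corrected signal minus the 75th percentile of the array, so that 0 stands for a spot as bright as that percentile, which was an intensity between 296.8 and 377.8. Between 53.1% and 59.2% of the spots of an array were well above background and 0 were saturated. The tissue label fitted its markers, since 8 of 8 hepatocyte markers were well above background on all 6 arrays. The 6 arrays lay on 1 slide scanned once, and since row 1 held WT and row 2 held L1-Tg pools, genotype and row cannot be told apart. In whole liver, fewer cells of a type and less RNA per cell cannot be told apart either. The only Npc1l1 probe used here is that of the mouse gene, which does not test the human transgene, and it was well above background in 2 of 3 WT pools and 1 of 3 L1-Tg pools.

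The 6 interferon-linked genes all had a higher mean in L1-Tg than in WT livers, and Parp1 and Parp2 did not. The differences of Parp12 (0.71), Parp14 (0.69) and Parp9 (0.41) were the clearest, as their L1-Tg pools were all above their WT pools. Parp10 (0.27), Dtx3l (0.18) and Parp11 (0.94, near background) had overlapping groups. The median log2 difference of the 6 genes was 0.55, and 0.41 over the 5 that were tested, beside -0.031 over all genes tested. The median of the 6, which includes the dim Parp11 probe, was 0.35 after a normexp background correction and 0.40 without L1-Tg replicate 3. In limma, 0 of the 7 tested members passed the Benjamini-Hochberg adjusted threshold of 0.05, where 0.121% of all tested genes (27) passed as higher. The smallest adjusted p of a member was 0.420 for Parp12 in limma. At an unadjusted p under 0.05 there were 3 members, and 4.54% of all tested genes were higher at that threshold. The groups did not overlap for the same 3 genes, where 7.27% of all tested genes were higher without overlap. Without moderation of the variances, 0 members passed after adjustment and an unadjusted p under 0.05 was seen for 3. In that test 0 of all 22341 tested genes passed after adjustment, so the 0 is not particular to the members. The share of all genes at an unadjusted p under 0.05 is not given for that test. The difference index of the methods, which divides the difference of the means of the linear signals by the sum of both SDs, was above 0.7 for Parp9, Parp12 and Parp14, where 11.8% of all tested genes were above it. These genes were grouped with earlier results of these arrays known, so the counts describe them and are not independent evidence.

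**Figure D1:**
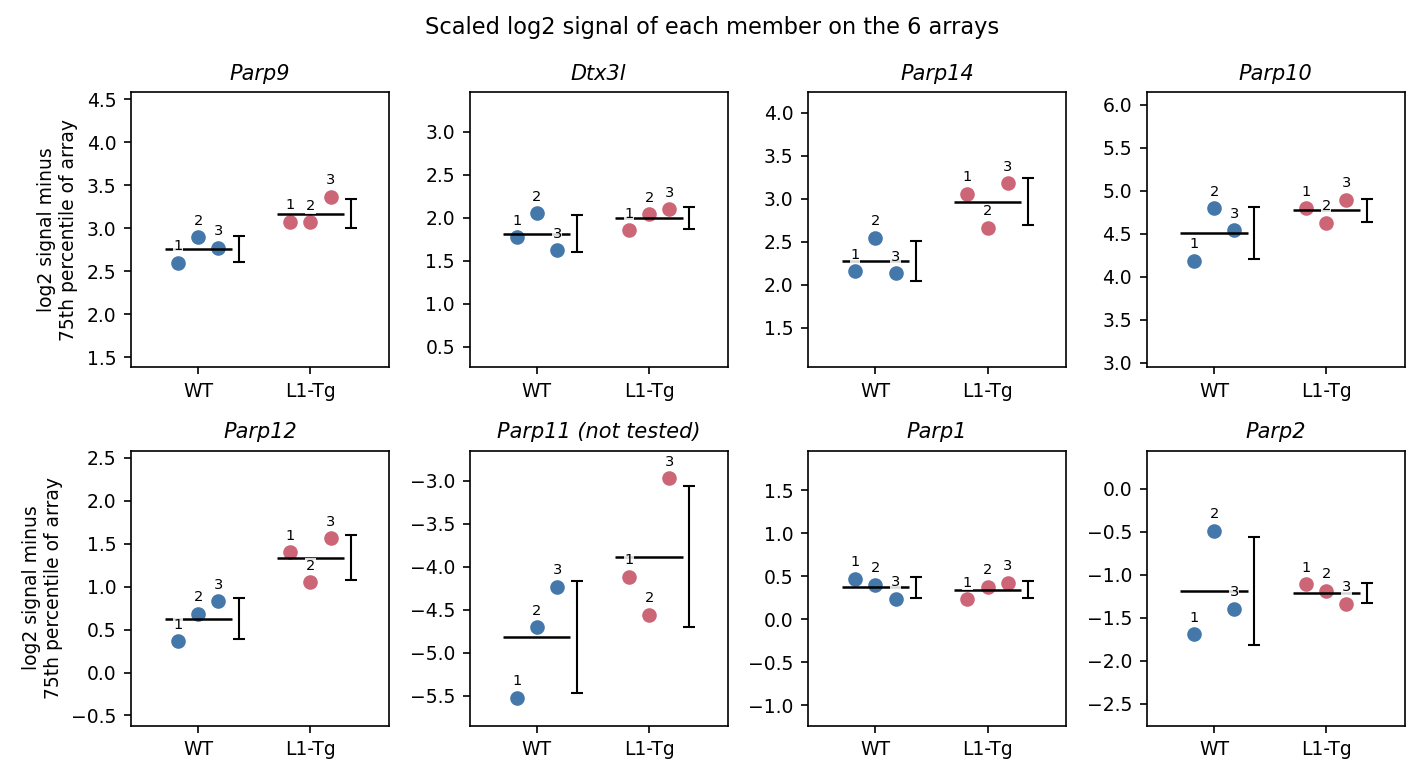
Scaled log2 signal (log2 signal minus the 75th percentile of the array, vertical axis) of each member on the 6 arrays, with WT pools in blue, L1-Tg pools in red and the replicate number above each point. Horizontal lines are group means and bars are ± 1 SD (n = 3 pools), every panel spans the same number of log2 units, and the groups are separate for Parp9, Parp14 and Parp12 only.

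Parp9 has macrodomains, which bind ADP-ribose, and works as the partner of Dtx3l. The scaled log2 signals of Parp9 were 2.60, 2.90 and 2.78 in WT replicates 1 to 3 and 3.08, 3.07 and 3.37 in L1-Tg replicates 1 to 3. All 3 L1-Tg pools were above all 3 WT pools, with a gap of 0.17 between the nearest ones. The means were 2.76 ± 0.15 (SD, n = 3 pools) in WT and 3.17 ± 0.17 in L1-Tg livers. The log2 difference was 0.41 with a standard error of 0.13 and a 95% interval from 0.10 to 0.73, which is a 1.33-fold higher signal (limma, Benjamini-Hochberg adjusted p = 0.491). Of all tested genes, 5.34% had a difference at least as high. The unadjusted p of Parp9 in limma was no longer under 0.05 without WT replicate 1, where the difference was 0.33, or without L1-Tg replicate 3, where it was 0.31.

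Dtx3l is a ubiquitin ligase of the deltex family. Its scaled log2 signals were 1.77, 2.05 and 1.63 in WT replicates 1 to 3 and 1.86, 2.04 and 2.10 in L1-Tg replicates 1 to 3. The groups overlapped, since WT replicate 2 was above L1-Tg replicates 1 and 2. The means were 1.82 ± 0.22 (SD, n = 3 pools) and 2.001 ± 0.13. The log2 difference was 0.18 with a standard error of 0.14 and an interval from -0.16 to 0.52 (limma adjusted p = 0.683). Leaving out WT replicate 2 gave 0.30 and leaving out WT replicate 3 gave 0.087. The second probe of Dtx3l, which was not used for the gene, was higher by 0.21 with a standard error of 0.21 (limma adjusted p = 0.756), and its groups overlapped as well. On neither probe were the genotypes separate for Dtx3l, as they were for its partner Parp9, and whether the 2 differences are unequal was not tested.

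Parp14, a large macrodomain enzyme that acts with Stat6, had scaled log2 signals of 2.15, 2.55 and 2.13 in WT replicates 1 to 3 and of 3.06, 2.66 and 3.18 in L1-Tg replicates 1 to 3. The highest WT pool, replicate 2, was 0.12 below the lowest L1-Tg pool, also numbered 2. The means were 2.28 ± 0.23 (SD, n = 3 pools) and 2.97 ± 0.27. The log2 difference was 0.69 with a standard error of 0.18 and an interval from 0.25 to 1.13, a 1.61-fold higher signal (limma adjusted p = 0.438). Of all tested genes, 2.14% had a difference at least as high. With 1 pool left out the difference lay between 0.58 and 0.84, and the unadjusted p in limma was under 0.05 each time.

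Parp10 attaches single ADP-ribose units and carries RNA-binding and ubiquitin-interacting domains. Its scaled log2 signals were 4.19, 4.80 and 4.54 in WT replicates 1 to 3 and 4.80, 4.63 and 4.90 in L1-Tg replicates 1 to 3. WT replicate 2 lay among the L1-Tg pools, and WT replicate 1 was the lowest of all. The means were 4.51 ± 0.31 (SD, n = 3 pools) and 4.77 ± 0.13, and the difference of 0.27 had a standard error of 0.17 and an interval from -0.15 to 0.68 (limma adjusted p = 0.654). It varied with the pools, as it was 0.41 without WT replicate 2, where its unadjusted p in limma was under 0.05, and 0.11 without WT replicate 1.

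Parp12 has zinc fingers and blocks the replication of several RNA viruses. Its scaled log2 signals were 0.37, 0.69 and 0.83 in WT replicates 1 to 3 and 1.40, 1.05 and 1.56 in L1-Tg replicates 1 to 3. The groups were separated by 0.22, and L1-Tg replicate 2 was the lowest pool of its group, as it was for Parp14. The means were 0.63 ± 0.24 (SD, n = 3 pools) and 1.34 ± 0.26. The log2 difference was 0.71 with a standard error of 0.18 and an interval from 0.27 to 1.14, a 1.63-fold higher signal (limma adjusted p = 0.420). Of all tested genes, 2.05% had a difference at least as high. With 1 pool left out it lay between 0.58 and 0.85, with an unadjusted p under 0.05 in limma each time.

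Parp11 is found at the nuclear envelope. Its probe was well above background in 1 of 3 WT and 2 of 3 L1-Tg pools, so it was not in the limma fit. The scaled log2 signals were -5.53, -4.70 and -4.23 in WT replicates 1 to 3 and -4.12, -4.56 and -2.97 in L1-Tg replicates 1 to 3. The groups overlapped, and L1-Tg replicate 3 stood above the other 5 pools. The means were -4.82 ± 0.65 (SD, n = 3 pools) and -3.88 ± 0.82. The difference of 0.94 had an exact permutation p of 0.2 (two-sided), where 3 against 3 pools reach no p under 0.1. This difference was 0.48 without L1-Tg replicate 3 and 0.29 after a normexp background correction. Among the promoter windows shown above, the one with both motifs belongs to the member whose probe was not well above background on all arrays of either genotype.

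**Figure D2:**
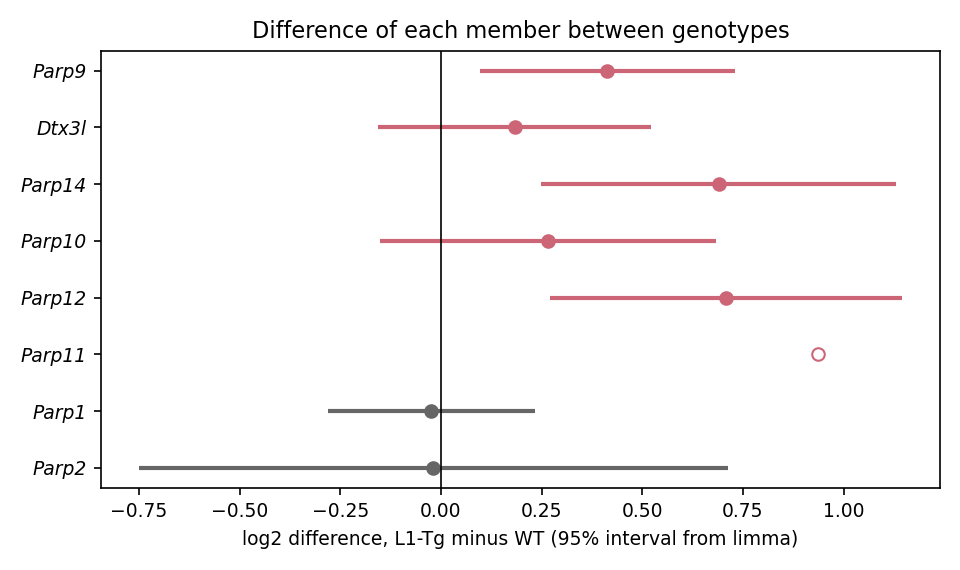
Log2 difference between L1-Tg and WT livers (horizontal axis) for each member, with the 95% interval from limma as a line (3 pools per group). The intervals of Parp9, Parp14 and Parp12 lie above 0 before adjustment, those of Dtx3l, Parp10, Parp1 and Parp2 include 0, and the open point of Parp11 has no interval because it was not tested.

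Parp1, the main sensor of DNA breaks, had scaled log2 signals of 0.47, 0.40 and 0.24 in WT replicates 1 to 3 and of 0.23, 0.37 and 0.42 in L1-Tg replicates 1 to 3. The groups overlapped almost wholly, with means of 0.37 ± 0.12 (SD, n = 3 pools) and 0.34 ± 0.098. The difference was -0.024 with a standard error of 0.11 and an interval from -0.28 to 0.23 (limma adjusted p = 0.952). The upper end of that interval is below the differences of Parp9, Parp12 and Parp14, although the interval of Parp9, which starts at 0.10, overlaps it. Parp2, which also acts at DNA breaks, had values of -1.69, -0.49 and -1.40 in WT and -1.11, -1.19 and -1.34 in L1-Tg replicates 1 to 3. WT replicate 2 was far above the other WT pools, and the L1-Tg pools lay between the WT extremes. The means were -1.19 ± 0.63 (SD, n = 3 pools) and -1.21 ± 0.12. The difference was -0.019 with a standard error of 0.30 and an interval from -0.75 to 0.71 (limma adjusted p = 0.990), so a difference as large as that of Parp12 was not detectable for Parp2. Without WT replicate 2 it was 0.33. Scaling to the array median in place of the 75th percentile moved the median of all genes by 0.11, to 0.077, and turned Parp1 to 0.085 and Parp2 to 0.090, close to that median.

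**Figure D3:**
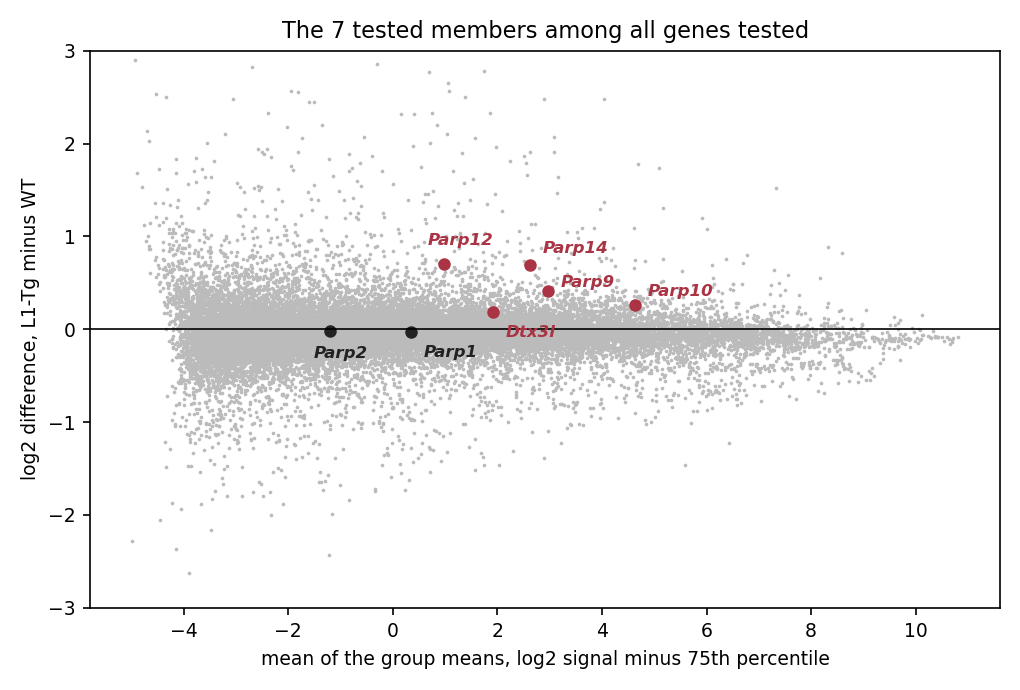
Log2 difference between L1-Tg and WT livers (vertical axis) against the mean of the group means of the scaled log2 signal (horizontal axis) for the 22341 genes tested, in gray, with the interferon-linked members in red and Parp1 and Parp2 in black. The axis ends at ±3 and leaves out 18 genes, and the members lie inside the cloud of genes, with Parp12 and Parp14 near its upper edge.

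The pools of a genotype differed among themselves in the interferon-linked genes. Taken against each gene's WT mean, their median was -0.21, 0.19 and 0.024 in WT replicates 1 to 3 and 0.51, 0.29 and 0.76 in L1-Tg replicates 1 to 3. L1-Tg replicate 3 was the highest pool of its group for 6 of 6 genes and L1-Tg replicate 2 the lowest for 5 of 6. The exception was Dtx3l, which was lowest in L1-Tg replicate 1. Among WT pools, replicate 2 was the highest for 4 of 6 and replicate 1 the lowest for 4 of 6. The medians of Parp1 and Parp2 were -0.20, 0.37 and -0.17 in WT replicates 1 to 3 and -0.026, 0.0059 and -0.0445 in L1-Tg replicates 1 to 3, so WT replicate 1 was the lowest and WT replicate 2 the highest WT pool for these medians as well. Over the 6 arrays, Pearson's r was 0.93 between Parp9 and Parp12, 0.93 between Parp9 and Parp14 and 0.91 between Parp14 and Parp12. After the group means were removed, these were 0.76, 0.74 and 0.63. Dtx3l followed Parp9 with an r of 0.71, or 0.57 after the group means were removed, and Parp12 with 0.43, or -0.065. Between Dtx3l and Parp11 r was 0.38, or 0.086. Pairs with Parp1 or Parp2 ranged widely too, from -0.34 between Parp12 and Parp1 to 0.65 between Parp10 and Parp2. With the group means removed, r was 0.80 between Parp10 and Parp2, 0.67 between Dtx3l and Parp1, 0.62 between Dtx3l and Parp2 and 0.56 between Parp14 and Parp2, so shared variation within genotypes was also seen with these comparison genes. These correlations rest on 6 arrays that share a slide and a scaling, and they are a description.

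The level of each gene was also set against Parp1 on the same array, which removes any factor common to an array. The log2 ratio to Parp1 was higher in L1-Tg livers by 0.73 for Parp12, 0.71 for Parp14 and 0.44 for Parp9, with no overlap of the groups. It was higher by 0.29 for Parp10 and 0.21 for Dtx3l, with overlap, and by 0.0055 for Parp2. For Parp9, Parp12 and Parp14 the exact permutation p was 0.1 (two-sided), the smallest that 3 against 3 pools allow, and 0.2 after Benjamini-Hochberg adjustment over the 6 ratios. For Dtx3l, Parp10 and Parp2 the exact permutation p was 0.2, 0.3 and 1. The ratio to Parp1 was chosen after the values were seen.

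The other 9 PARP family members had a median difference of 0.12, with 7 higher and 2 lower, and 0 passed the adjusted threshold in limma. Zc3hav1, which binds viral RNA and is also an interferon-stimulated gene, had scaled log2 signals of -0.37, -0.24 and -0.60 in WT and -0.19, -0.021 and 0.012 in L1-Tg replicates 1 to 3. Its groups did not overlap, and the difference was 0.34 (standard error 0.13, limma adjusted p = 0.543). It was the only one of the 9 with an unadjusted p under 0.05 in limma, where 4.54% of all tested genes were higher. Parp4, a part of the vault particle, differed by 0.19 (limma adjusted p = 0.615), and Parp16, an enzyme of the endoplasmic reticulum, by 0.32 (limma adjusted p = 0.628). The 4 deltex family genes other than Dtx3l had a median of -0.040, with 1 higher, 3 lower and 0 at an unadjusted p under 0.05. Dtx2, Dtx3 and Dtx4 differed by -0.11, 0.14 and -0.044.

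The genes that remove or bind ADP-ribose and those that supply NAD were divided between higher and lower ones. Of 8 genes in the removal and binding list, 4 were higher and 4 lower, with a median of -0.0445 and 0 below an unadjusted limma p of 0.05. The lower ones include Tpp1 (-0.10), a lysosomal peptidase that does not act on ADP-ribose, so these counts and the median describe the list only. Parg, which cleaves ADP-ribose chains, was higher by 0.23 (limma adjusted p = 0.607), with scaled log2 signals of 1.24, 0.96 and 1.30 in WT and 1.39, 1.37 and 1.42 in L1-Tg replicates 1 to 3, and its groups did not overlap. Adprhl2, which removes ADP-ribose from serine, differed by 0.17 (limma adjusted p = 0.621) and Adprhl1 by -0.27 (limma adjusted p = 0.574), both without overlap. Of 14 tested genes of NAD supply, 6 were higher and 8 lower, with a median of -0.048 and again 0 below 0.05. Haao, which makes a precursor of NAD from tryptophan, differed by -0.28 (limma adjusted p = 0.561), Nadk, the NAD kinase, by 0.17 (limma adjusted p = 0.593) and Nmnat1, which makes NAD in the nucleus, by -0.17 (limma adjusted p = 0.639). Of 9 partners of Parp1 and Parp2 in the repair of DNA breaks, 6 were higher and 3 lower, with a median of 0.021. Chd1l, a chromatin remodeler recruited by ADP-ribose chains, differed by 0.30 (standard error 0.12, limma adjusted p = 0.552). Aptx differed by 0.20 (limma adjusted p = 0.729) and Xrcc1, a repair scaffold, by -0.094 (limma adjusted p = 0.744). Among the genes named here, the groups also did not overlap for Haao, Nadk, Chd1l and Xrcc1. Of all tested genes, 7.27% were higher without overlap.

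Of 14 genes of interferon signalling, 9 were higher and 5 lower in L1-Tg livers, with a median of 0.15, and 0 passed the adjusted threshold in limma, where the smallest adjusted p was 0.199. Usp18, an interferon-stimulated protease that dampens the receptor, had scaled log2 signals of 2.01, 2.49 and 2.70 in WT and 3.79, 3.57 and 4.25 in L1-Tg replicates 1 to 3. All L1-Tg pools were above all WT pools, and the difference was 1.47 (standard error 0.24, limma adjusted p = 0.199). Irf7, a transcription factor that interferon induces, had values of 0.80, 1.22 and 3.19 in WT and 3.50, 3.02 and 3.68 in L1-Tg replicates 1 to 3. WT replicate 3 lay among the L1-Tg pools for Irf7, and the difference of 1.66 had a standard error of 0.61 (limma adjusted p = 0.537). For Parp9, Parp14 and Parp12 the same WT pool stayed below the L1-Tg pools. Jak1, the receptor kinase, differed by -0.21 (standard error 0.082, limma adjusted p = 0.549) with no overlap. Usp18, Irf7 and Jak1 were the only ones of the 14 with an unadjusted p under 0.05 in limma. At that threshold, 1014 of all 22341 tested genes were higher and 965 lower.

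**Figure D4:**
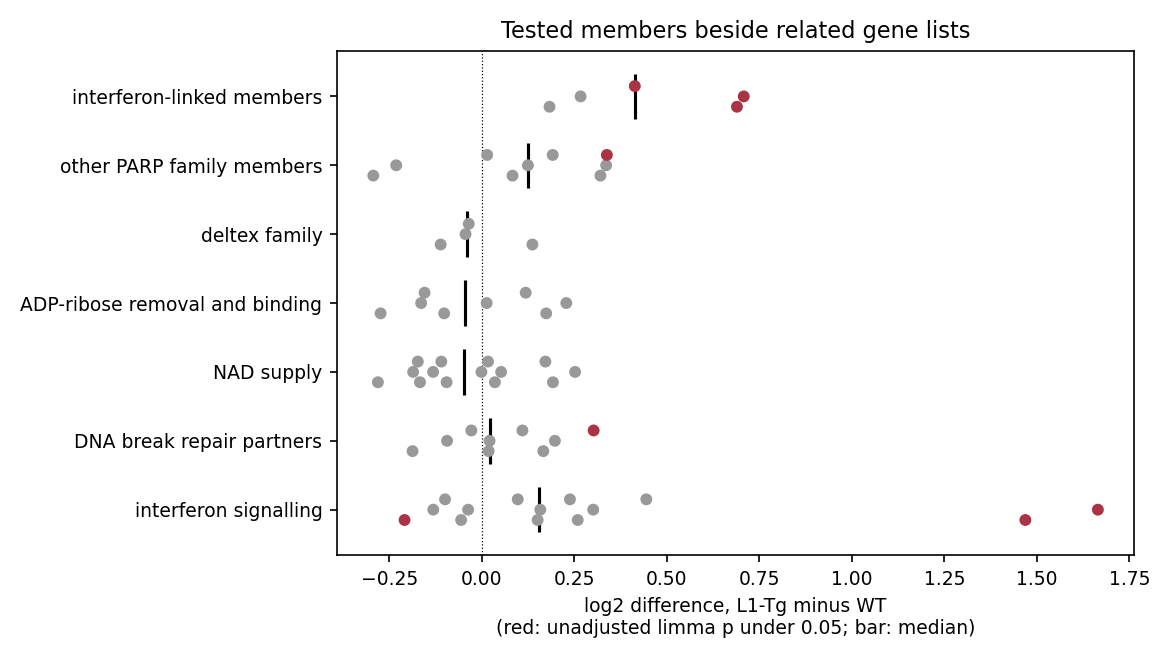
Log2 difference between L1-Tg and WT livers (horizontal axis) of each tested gene in the interferon-linked group and in 6 related gene lists (rows), with the median of each as a bar and genes with an unadjusted limma p under 0.05 in red. The 5 tested interferon-linked genes lie between 0.18 and 0.71 with a median of 0.41, the medians of the other lists lie between -0.048 and 0.15, and Usp18 and Irf7 lie farthest right.

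The 5 genes whose scaled log2 signal followed the mean of the 5 tested interferon-linked genes most closely over the 6 arrays were Cdc34, Alg9, Rab3gap1, Gbp6 and Mtm1, among 12757 genes with a symbol and a probe well above background on each array. Pearson's r was 0.9975 for Cdc34 and 0.99 for the other 4, and 187 of these genes had an r above 0.9. Gbp6, a guanylate-binding protein induced by interferon, had values of -0.43, 0.89 and 0.12 in WT and 1.66, 1.03 and 1.87 in L1-Tg replicates 1 to 3. Its difference was 1.33 (standard error 0.37, limma adjusted p = 0.457), whereas Cdc34, a ubiquitin-conjugating enzyme, differed by 0.23, Alg9 by 0.17, Rab3gap1 by 0.15 and Mtm1 by 0.28.

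Markers of other liver cells were set beside these values, and their part in the member differences was not tested. All 7 Kupffer cell and macrophage markers on the array had a higher mean in L1-Tg livers, with a median of 0.30 and 0 below an unadjusted limma p of 0.05. The summed linear signal of these markers, in multiples of the 75th percentile, was 93.2, 125.9 and 172.4 in WT and 173.2, 147.9 and 161.1 in L1-Tg replicates 1 to 3. WT replicate 1 was the lowest pool for these markers and for 4 of the 6 interferon-linked genes, whereas WT replicate 3 reached the level of the L1-Tg pools for the markers. Lymphocyte markers summed to between 100.8 and 235.4 in WT and between 90.0 and 108.2 in L1-Tg pools, with 7 of 10 tested genes higher. The higher ones include Cd8a, Cd79a and Cd3g, which entered the test only through the L1-Tg pools, so the filter favored a higher count. Neutrophil markers summed to between 20.7 and 67.1 in WT and between 19.8 and 25.0 in L1-Tg pools, with 5 of 6 tested genes higher. Among the higher ones, Mpo and Retnlg also entered the test only through the L1-Tg pools. Dendritic cell markers summed to between 277.6 and 307.5 in WT and between 249.4 and 273.6 in L1-Tg pools, without overlap. Of these markers, 3 of 5 tested genes were higher. The brightest gene made up most of each of these sums, and its log2 difference was -0.71 for Cd4 (lymphocyte), -0.71 for Elane (neutrophil) and -0.18 for Siglech (dendritic cell). These sums therefore show the level of 1 gene more than that of a cell type. For endothelial and stellate cell markers the groups overlapped, with 4 of 6 and 2 of 6 genes higher.

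The direction of the 6 interferon-linked genes was kept under each of 16 alternatives that gave a value, while that of Parp1 and Parp2 was not. All 16 process the same arrays. The 2 other filters on dim probes, the replicate block and the unmoderated test cannot change a difference, and the mean over probes can change only that of Dtx3l. Only the other alternatives could have turned a direction of the remaining members. Among scalings, background corrections and the deposited normalized matrix, Parp9 lay between 0.41 and 0.52, Parp14 between 0.67 and 0.80 and Parp12 between 0.63 and 0.82. With 1 pool left out, Parp9 lay between 0.31 and 0.48. The number of members above the difference index of 0.7 was 3 as reported and between 3 and 6 over the alternatives. It was 4 with quantile normalization (Parp10 added, beside 15.3% of all tested genes), without scaling (Dtx3l, 10.7%) and with normexp (Parp11, 10.9%). It was also 4 with the deposited matrix (Dtx3l, 15.9%), without WT replicate 3 (Parp11, 16.5%) and without L1-Tg replicate 1 (Dtx3l, 14.2%). It was 5 with median scaling, where 19.5% of all tested genes were above 0.7, and 5 without L1-Tg replicate 2, where 14.0% were. Without WT replicate 2 it was 6, Parp2 included, beside 12.7% of all tested genes.

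**Figure D5:**
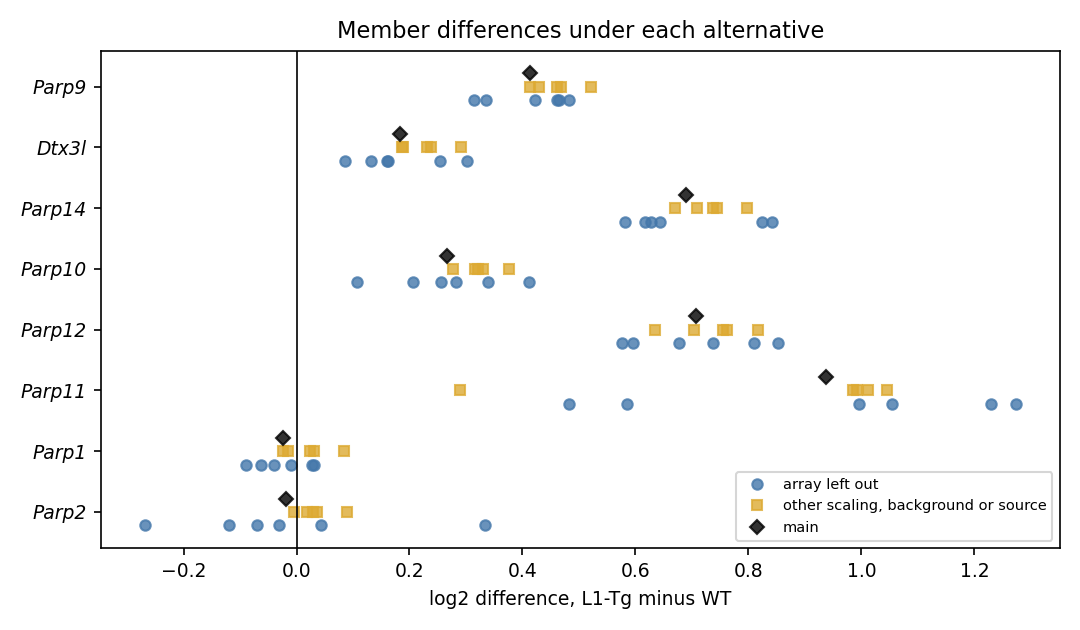
Log2 difference between L1-Tg and WT livers (horizontal axis) of each member as reported (black diamonds), under 5 other choices of scaling, background or source (yellow squares) and with each pool left out in turn (blue circles). The points of the interferon-linked genes lie above 0, with Dtx3l between 0.087 and 0.30 and Parp10 between 0.11 and 0.41, and those of Parp1 and Parp2 lie on both sides of 0.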

How the data were processed

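Liver RNA of 3 WT and 3 L1-Tg pools was measured on 1-color Agilent arrays. For each spot the authors deposited a processed signal (Feature Extraction 10.10.1.1), an intensity with background subtracted and no scaling between arrays, the median spot and background intensities, marks for spots well above background, and a matrix of normalized intensities that equals the processed signal times 1 factor per array, whose basis is not given in the sources used here. Groups were taken from the labels.

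The 3671 control spots were dropped, non-uniform spots (1 to 22 per array) were set to missing, and repeated probes (432) were averaged. Symbols were assigned to 27235 of 28685 probes that carry a RefSeq-type name through a RefSeq table (GRCm38.p6), which also gave gene order. The array held 55681 probes, and those without a symbol were kept under their array name. Each such name was counted as a gene, so shares of all tested genes include them. The log2 signal minus the 75th percentile of its array was used, with the probe of the highest mean for each gene. A gene entered the test if its probe was well above background on the 3 arrays of either group. Moderated tests (two-sided) used limma 3.58.1 (lmFit, eBayes) under R 4.3.3, with p-values of 22341 genes adjusted by Benjamini-Hochberg (threshold 0.05). Files were read with the packages data.table (1.17.8) and jsonlite (2.0.0). The replicate number was not used as a block, as nothing says that it pairs pools. Figures were drawn with matplotlib 3.10.9 in Python 3.11.15. The index threshold of 0.7 follows the methods.

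The alternatives were quantile normalization, median scaling, no scaling, a normexp correction (offset 50), the deposited matrix, 2 other filters on dim probes, the mean over probes, a replicate block, an unmoderated test and leaving out each array. For normexp the median spot signal was used, in place of the mean signal that had been planned. A protein comparison was planned and not made, as no protein sequences were used here.

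The fit was tested on simulated data for L1-Tg against WT, drawn for the 22341 genes. The noise was normal, with each gene's own spread, and independent between genes, and only the genes counted below were changed. The shares called hold for that setting, as real genes vary together and the number that differ is not known. It called 1.49% of 67 genes changed by a log2 difference of 0.5, 50.7% of 67 changed by 1 and 86.4% of 66 changed by 2. There were 3 false calls, and an unadjusted p under 0.05 was found for 5.22% of unchanged genes. Precision is limited by the number of arrays, as exact permutation of 3 against 3 reaches no p under 0.1.

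Named were the 8 members, up to 3 genes with the smallest p of each related list, the 5 genes most like the interferon-linked mean, the neighbors of the members and mouse Npc1l1. Also named were Tpp1 and the markers Cd4, Elane and Siglech, because of their weight in a list or sum. The markers Cd8a, Cd79a, Cd3g, Mpo and Retnlg were named because they entered the test only through the L1-Tg pools. The members and lists were chosen with earlier results of these data known.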

Additional observations from a re-analysis of the deposited data

How the results depend on the processing

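Under 16 alternatives, the count of members past the adjusted threshold in limma stayed 0, and 11 recomputed values reversed and 3 moved by over 1.5 times. The other 172 kept their direction and their side of the adjusted threshold. Counts that moved by at most 1.5 times and untested values that moved by less than 1 SD were taken as kept. Some of the 172 could not change direction, since the filters, the replicate block and the unmoderated test leave each difference as it is. Parp2 turned positive with quantile normalization (0.018), median scaling (0.090), no scaling (0.036), the deposited matrix (0.030), without WT replicate 2 (0.33) and without L1-Tg replicate 3 (0.044), and lay between -0.27 and 0.33 with 1 array left out. Parp1 turned positive with median scaling (0.085), no scaling (0.031), the deposited matrix (0.024), without WT replicate 1 (0.027) and without L1-Tg replicate 1 (0.031), and lay between -0.090 and 0.031 with 1 array left out. The count past the difference index, 3, was 4 with quantile normalization, no scaling, normexp and the deposited matrix. It was 5 with median scaling and between 3 and 6 with 1 array left out. Over these settings the share of all tested genes above the index lay between 10.7% and 19.5%, beside 11.8% as reported. The count at an unadjusted p under 0.05, 3, lay between 2 and 4 with 1 array left out, without Parp9 when WT replicate 1 or L1-Tg replicate 3 was left out, and with Parp10 added without WT replicate 2. The cause of these changes was not tested. The adjusted p in limma ranged from 0.253 to 0.935 for Parp12, from 0.308 to 0.935 for Parp14 and from 0.383 to 0.935 for Parp9. With the replicate block the adjusted p in limma was 0.581 for Parp9, 0.573 for Parp14 and 0.474 for Parp12, 0 members passed, and 11 genes passed over the array in place of 29. Deviations of same-numbered pools correlated at -0.157, 0.111 and 0.019, and those of differently numbered pools between -0.168 and 0.168. With 3 pools per group, these values cannot tell whether the numbers pair the pools. The count over all genes was 0 in the unmoderated test, 10 without a filter, 19 with the mean over probes and between 9 and 19 with 1 array left out. The 3 pools per group and dim signal limit these results, and Parp11 was too dim to be tested.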

Other observations

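The genes next to the members were read from the RefSeq gene order (GRCm38.p6), with 3 places on either side of each member. On chromosome 16, Parp14 lies 3 places from Dtx3l, whose span overlaps that of Parp9. Beside this group, the log2 difference (L1-Tg minus WT) was 0.10 for Kpna1 (limma adjusted p = 0.776), 0.27 for Wdr5b (limma adjusted p = 0.616) and 0.15 for Slc49a4 (limma adjusted p = 0.797). Beside Parp10 on chromosome 15, Plec differed by -0.044 and Grina by 0.27 (limma adjusted p = 0.621). Beside Parp12 on chromosome 6, Kdm7a differed by -0.21. Beside Parp1 on chromosome 1, Stum differed by -0.19, without overlap of the groups, and Lin9 by 0.19, with overlap. Beside Parp2 on chromosome 14, Tep1, the telomerase-associated protein of the vault particle, was higher by 0.29 with a standard error of 0.10 (limma adjusted p = 0.520) and no overlap of the groups, and Ttc5 by 0.30 (limma adjusted p = 0.576). Beside Parp11, Cracr2a and Prmt8 were on the array and too dim to be tested. The same held for Hspbap1 beside Parp14, Spatc1 beside Parp10, 1700025N23Rik beside Parp12, Mixl1 beside Parp1 and Ccnb1ip1 beside Parp2.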
